A study of Mus musculus with 12 samples.

Results

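The 10 genes described here are read as signs of mechanical load and hypertrophic growth in the heart: Ankrd1, Ankrd2, Des, Xirp1, Fhl1, Enah, Acta1, Rcan1, Hbegf and Timp1. They were chosen by name, and each was followed by its brightest probe, the probe with the highest mean over the arrays. All 10 had a probe among the 18069 named genes of the array, 11 probes in all because Enah had 2. The measurements come from hearts of Balb/c mice, an inbred strain, that received by gavage either DMA at 30 mg/kg, an abbreviation the labels do not expand, or the vehicle DMSO. Collection 24 h or 48 h after dosing gave 4 groups of 3 arrays: DMSO 24 h, DMA 24 h, DMSO 48 h and DMA 48 h. All groups thus share the strain, the gavage and, as far as the labels say, DMSO as vehicle, and no genotype, age or untreated group was given. RNA was isolated as a pool of hearts, and the arrays are called biological replicates. How many animals stand behind each array is not given in the sources used here, so p-values measure the spread between these samples, which may be partly technical.

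When the wall of the heart is stretched or works against a higher load, cardiomyocytes switch on genes that reinforce the sarcomere, the Z-disc and the intercalated disc. They also return to actin and myosin isoforms of the fetal heart, activate calcineurin and its target NFAT, and release growth factors that act on muscle and connective tissue. Ankrd1 and Ankrd2 bind the titin spring, Des, Xirp1, Fhl1 and Enah belong to the load-bearing cytoskeleton, Acta1 is the skeletal actin that returns in hypertrophy, Rcan1 reports calcineurin activity, and Hbegf and Timp1 encode secreted signals of remodelling.

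None of the 10 genes passed the test for DMA at 24 h, and none of the 9 that could be tested did at 48 h. With all arrays the differences ran from -2.28 (Ankrd1) to 1.57 (Des) on the log2 scale at 24 h, and at 48 h from -0.64 (Rcan1) to 0.22 (Timp1) over those 9. The most negative 24 h differences, those of Ankrd1, Timp1 and Enah, came with 1 array, DMA 24 h replicate 3. Without it Ankrd1 differed by 0.26, Timp1 by -0.70 and Enah by -0.20. Des kept a difference of 1.69 without that array. Tests were made with limma, in which each difference is judged against the spread between arrays. Over the whole array 0 of 35401 probes (0%) had an adjusted p under 0.05 at 24 h, and 1071 (3.03%) had an unadjusted p under 0.05. At 48 h these counts were 0 (0%) and 494 (1.4%). Of the 9 tested genes 0 had an unadjusted p under 0.05 at either time.

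The values are log2 intensities as deposited, with a median near 6.03 on the 24 h arrays and 6.35 on the 48 h arrays. Because that scale differed between the times, levels were compared only within a time. Of the 12 arrays, DMA 24 h replicate 3 stood apart: its correlation with the median array of its time was 0.742, where the other 11 reached 0.927 to 0.963. DMA 48 h replicate 3 drifted along the probe numbers, with a median deviation of 0.35 in the lowest decile of numbers and -0.96 in the highest. Between 322 and 3997 probes of an array had no value. The heart label was checked on 18 cardiomyocyte markers, of which 6 had values on all 12 arrays. Among these Nkx2-5, a transcription factor gene of the heart, read between 10.65 and 11.98 on 11 arrays and 6.39 on DMA 24 h replicate 3. The others went different ways on that array. Ryr2, dim elsewhere, had its highest value there, 7.54, and Cox6a2 stayed bright at 13.58. Actn2 and Ckm had their lowest values there, 4.10 and 8.72. Myh6 read 4.39 there and was lowest on DMSO 24 h replicate 2, at 3.84. Tnnc1 had no value on DMSO 48 h replicate 1, read 6.07 on DMA 24 h replicate 3 and was at 12.20 to 13.89 elsewhere. Ckmt2 read 12.43 to 14.64 on the arrays where it had a value. Atp2a2 and Actc1 had no value on any array, and Fabp3, Mb, Myl2, Pln and Tnni3 had one only on DMA 24 h replicate 3, between 13.25 and 13.73. Tnnt2, Myl3 and Mybpc3 had values on 2 or 3 arrays. On DMA 24 h replicate 3 they read 9.49, 10.07 and 11.08. Their other values lay between 13.77 and 14.80, where the highest values of the arrays were 14.53 to 15.12. The markers thus gave only a partial check. In whole-heart RNA, fewer cells of a type and less RNA per cell cannot be told apart.

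**Figure D1:**
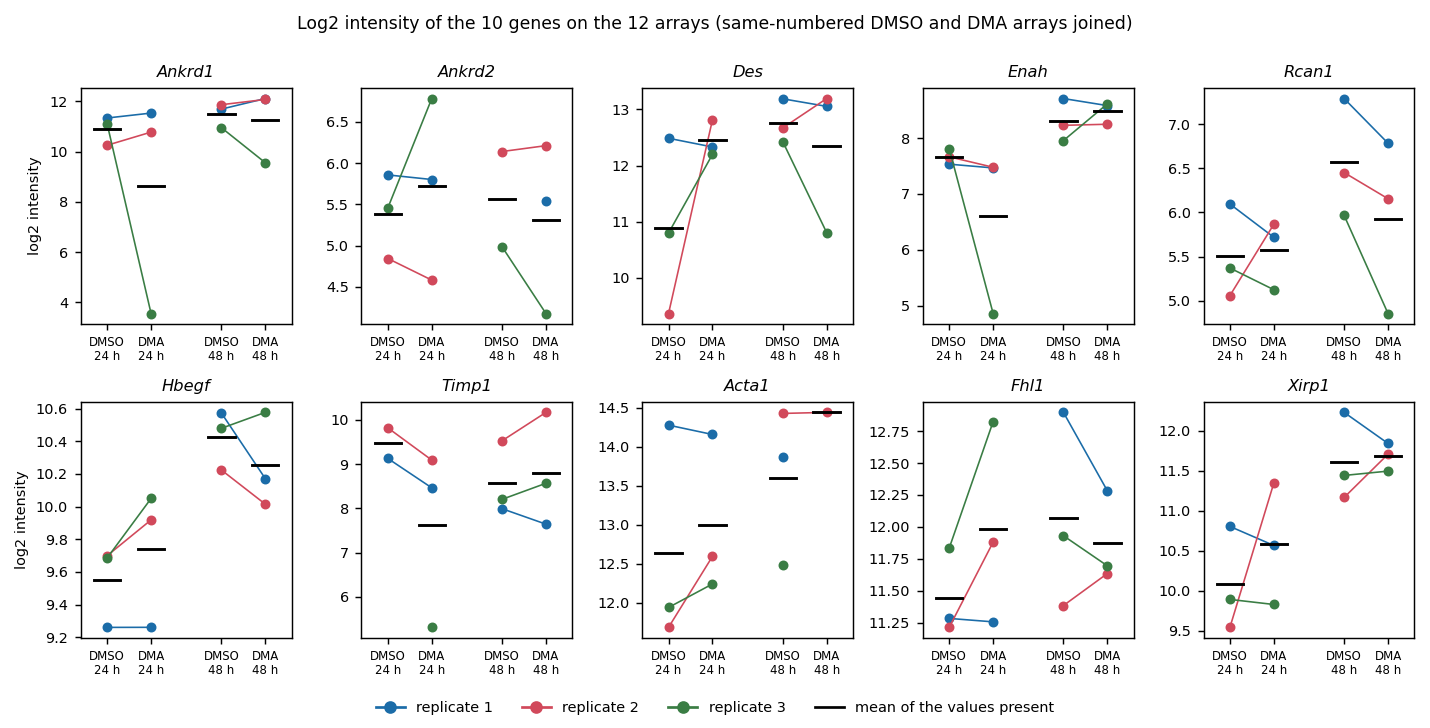
Log2 intensity of each gene (vertical axes, 1 panel per gene, each with its own range) on the 12 arrays, with points for single arrays, lines joining same-numbered DMSO and DMA arrays of one time, and black bars for the mean of the values present. DMA 24 h replicate 3 is the lowest point of Ankrd1, Enah and Timp1, while Hbegf stays between 9.26 and 10.58 on all 12 arrays.

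Ankrd1 encodes the cardiac ankyrin repeat protein, which sits on the titin spring and enters the nucleus on stretch. Its log2 values at 24 h were 11.34, 10.26 and 11.11 on DMSO replicates 1, 2 and 3 and 11.54, 10.78 and 3.55 on the DMA arrays. At 48 h they were 11.70, 11.87 and 10.96 after DMSO and 12.12, 12.08 and 9.56 after DMA. The value of 3.55 deviated by -7.55 from the median of the remaining 24 h arrays. On that array 0.137% of all probes deviated further down. On every other array Ankrd1 read between 9.56 and 12.12, and DMA and DMSO values overlapped at both times. The fitted difference at 24 h was -2.28 (SE 1.64, limma adjusted p = 0.871), with a 95% interval of -5.88 to 1.32. Without DMA 24 h replicate 3 it was 0.26 (SE 0.73). At 48 h the difference was -0.26 (SE 1.64, limma adjusted p = 1), and 0.59 without DMA 48 h replicate 3. In the first and second pair of same-numbered arrays Ankrd1 was higher after DMA at both times, by 0.20 and 0.52 at 24 h and by 0.42 and 0.21 at 48 h.

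Ankrd2, a relative of Ankrd1 best known from skeletal muscle, was dim, near the median intensity of the arrays. Its 24 h values were 5.86, 4.84 and 5.46 after DMSO and 5.80, 4.58 and 6.78 after DMA. At 48 h DMSO replicate 1 had no value, the other DMSO arrays read 6.14 and 4.99, and the DMA arrays read 5.54, 6.21 and 4.18. DMA replicate 3 had the highest value at 24 h and the lowest at 48 h, and the groups overlapped at both times. Ankrd2 differed by 0.34 (SE 0.67, limma adjusted p = 0.919) at 24 h and -0.25 (SE 0.75, adjusted p = 1) at 48 h, with the missing DMSO array dropped. Leaving out the replicate 3 DMA array of the time turned both signs, to -0.19 at 24 h and 0.31 at 48 h.

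Many muscle genes of the heart carry the M-CAT element, the site of TEAD factors, and muscle actin genes carry the CArG box, the site of serum response factor. The starts of Ankrd1 and Acta1 are shown because these elements lie close to them, and the inner start of Rcan1 because it is the one known to answer calcineurin. Each is the stretch of 250 bases before the start of transcription in RefSeq's promoter table (GRCm38.p6), 5′ to 3′ on the gene's own strand. Capitals mark M-CAT (CATTCC or its complement GGAATG), the CArG box and AP-1 (TGANTCA).
Ankrd1, chr19:36119845-36120094, minus strand: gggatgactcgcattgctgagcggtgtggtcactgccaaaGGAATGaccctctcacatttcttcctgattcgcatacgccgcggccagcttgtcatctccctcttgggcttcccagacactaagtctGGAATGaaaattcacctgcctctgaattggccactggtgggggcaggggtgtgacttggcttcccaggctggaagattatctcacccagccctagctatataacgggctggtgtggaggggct
Acta1, chr8:123894776-123895025, minus strand: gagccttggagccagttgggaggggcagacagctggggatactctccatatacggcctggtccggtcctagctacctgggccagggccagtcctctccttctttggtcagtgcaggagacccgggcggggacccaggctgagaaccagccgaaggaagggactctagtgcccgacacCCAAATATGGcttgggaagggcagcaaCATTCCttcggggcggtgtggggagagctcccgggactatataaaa
Rcan1, inner start, chr16:92400079-92400328, minus strand: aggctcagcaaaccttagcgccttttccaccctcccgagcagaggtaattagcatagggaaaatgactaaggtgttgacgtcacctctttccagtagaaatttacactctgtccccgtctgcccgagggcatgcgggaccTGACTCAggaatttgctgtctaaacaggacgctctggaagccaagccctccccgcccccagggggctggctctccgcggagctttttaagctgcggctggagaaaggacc
Ankrd1 held M-CAT at 210 and 123 bases before its start, counted to the first base of the match. Acta1 had M-CAT at 46 and a CArG box at 73 bases. Of the 8 genes in the table (all but Hbegf and Xirp1), 3 had M-CAT in any listed start (Ankrd1, Acta1 and Timp1, but not Ankrd2) and 2 a CArG box (Acta1 and Fhl1), against 12.6% and 1.47% of all 32851 promoters, with both strands searched. AP-1 was found in 1 of 8, the inner start of Rcan1 (6.75% of all promoters), and the NFAT core GGAAA in 4 of 8 (55.6%), with 3 matches in that start. No match shared bases with a match of another motif. Rcan1 and Fhl1 have more than 1 listed start, and which Rcan1 transcript its probe reads is not given in the sources used here.

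Des encodes desmin, the intermediate filament that ties Z-discs to each other and to the cell membrane. It read 12.49, 9.36 and 10.79 on the DMSO arrays and 12.33, 12.81 and 12.20 on the DMA arrays at 24 h. At 48 h it read 13.19, 12.67 and 12.43 after DMSO and 13.06, 13.19 and 10.80 after DMA. The 24 h DMA arrays lay close together, 2 of the 3 DMSO arrays lay below all of them, and DMSO replicate 1 lay among them, so the groups overlapped. The 24 h difference of 1.57 (SE 0.78, limma adjusted p = 0.871, 95% interval -0.14 to 3.28) came with pair differences of -0.16, 3.46 and 1.40. Without DMSO 24 h replicate 2 it was 0.81, and without DMSO 24 h replicate 1 it was 2.37. At 48 h Des differed by -0.41 (SE 0.78, limma adjusted p = 1), and by 0.36 without DMA 48 h replicate 3. The difference between the times was -1.98 (SE 1.10, adjusted p = 0.999).

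Xirp1 encodes a Xin repeat protein that binds actin filaments at the intercalated disc. Its values were 10.80, 9.54 and 9.89 after DMSO and 10.57, 11.35 and 9.83 after DMA at 24 h. At 48 h they were 12.23, 11.17 and 11.44 after DMSO and 11.84, 11.71 and 11.49 after DMA. The second pair at 24 h stood out with a difference of 1.80, while the other pairs differed by -0.24 and -0.06. DMA and DMSO values overlapped at both times. Xirp1 differed by 0.50 (SE 0.48, limma adjusted p = 0.871) at 24 h and 0.07 (SE 0.48, adjusted p = 1) at 48 h. Without DMA 24 h replicate 3 the 24 h difference was 0.88, and without DMSO 24 h replicate 2 or DMA 24 h replicate 2 it was 0.23 or 0.12.

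Fhl1 encodes a LIM-domain protein that anchors signalling kinases to titin. It read 11.28, 11.21 and 11.83 after DMSO and 11.26, 11.88 and 12.82 after DMA at 24 h. At 48 h it read 12.90, 11.38 and 11.93 after DMSO and 12.28, 11.63 and 11.69 after DMA. The highest value at 24 h was that of DMA replicate 3, where the groups overlapped, and the highest at 48 h was that of DMSO replicate 1. Its differences were 0.54 (SE 0.49, limma adjusted p = 0.871) and -0.20 (SE 0.49, adjusted p = 1). The first was 0.13 without DMA 24 h replicate 3, and the second was 0.21 without DMSO 48 h replicate 1.

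Enah encodes Mena, an Ena/VASP protein that promotes the growth of actin filaments at cell junctions. Its brighter probe read 7.53, 7.67 and 7.81 after DMSO and 7.47, 7.48 and 4.86 after DMA at 24 h. At 48 h it read 8.71, 8.23 and 7.96 after DMSO and 8.58, 8.25 and 8.61 after DMA. Every 24 h DMA value was below every DMSO value, but replicates 1 and 2 lay only 0.07 and 0.19 below their same-numbered arrays. The fitted difference of -1.07 (SE 0.61, limma adjusted p = 0.871) became -0.20 (SE 0.28) without DMA 24 h replicate 3. The other Enah probe read 5.05, 5.74 and 5.81 after DMSO and 5.37, 5.65 and 7.24 after DMA at 24 h. On DMA 24 h replicate 3 the probes thus deviated in opposite directions, by -2.68 and 1.59. The dimmer probe differed by 0.55 (SE 0.48, limma adjusted p = 0.871) at 24 h and -0.02 without that array. At 48 h the probes differed by 0.18 (SE 0.61) and -0.21 (SE 0.48), with an adjusted p of 1 in limma for both.

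Acta1 encodes skeletal muscle alpha-actin, which the adult heart makes again under load. At 24 h it read 14.27, 11.69 and 11.94 after DMSO and 14.15, 12.59 and 12.24 after DMA. Replicate 1 was about as high after DMSO as after DMA, and the other 4 arrays lay at 11.69 to 12.59. At 48 h the DMSO arrays read 13.87, 14.42 and 12.49, and of the DMA arrays only replicate 2 had a value, 14.44, which left Acta1 out of the 12-array fit. That value lay close to the top of its array, at 14.87. Heart markers without values on most arrays went both ways. Mybpc3 read 14.52 and 14.56 on DMSO 24 h replicates 2 and 3, and 11.08 on DMA 24 h replicate 3, where Tnnt2 read 9.49. Whether the missing Acta1 values were missing for brightness was not tested. Fitted within the 24 h arrays alone, it differed by 0.36 (SE 0.84, limma adjusted p = 0.964), with pair differences of -0.12, 0.91 and 0.30. The mean difference at 24 h without DMA replicate 3 was 0.74. Skeletal muscle markers were read beside it: over 8 of 14 markers with all values, the mean log2 level was 6.16 to 6.68 on DMSO 24 h arrays, 5.87 to 6.81 on DMA 24 h, 6.92 to 7.09 on DMSO 48 h and 6.18 to 7.21 on DMA 48 h. These 8 included Ckm, also one of the cardiomyocyte markers, which read 8.72 to 13.76, and Mybpc2, at 9.77 to 11.70. The rest read 7.86 or lower. The part of the skeletal muscle markers in the Acta1 and Ankrd2 values was not tested.

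Rcan1 encodes a regulator of calcineurin whose shorter transcript is itself a calcineurin target. Its values at 24 h were 6.10, 5.06 and 5.37 after DMSO and 5.72, 5.87 and 5.12 after DMA. At 48 h they were 7.29, 6.45 and 5.97 after DMSO and 6.78, 6.16 and 4.85 after DMA. In each 48 h pair the DMA array was lower, by differences of -0.51, -0.30 and -1.11, and replicate 1 was the highest and replicate 3 the lowest of both groups. Rcan1 was the only one of the 8 genes with 3 complete pairs at 48 h whose pairs had 1 sign, and that sign was negative, where 11.1% of probes had 3 negative and 15.6% had 3 positive pairs. The fitted 48 h difference was -0.64 (SE 0.54, limma adjusted p = 1, 95% interval -1.82 to 0.55), and -0.10 without DMA 48 h replicate 3. It was -0.28 without DMSO 48 h replicate 1 and -1.06 without DMA 48 h replicate 1. At 24 h the difference was 0.06 (SE 0.54, adjusted p = 0.985), and 0.28 without DMA 24 h replicate 3.

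Hbegf encodes heparin-binding EGF-like growth factor, which is shed from the cell membrane and activates EGF receptors. It read 9.26, 9.70 and 9.69 after DMSO and 9.26, 9.92 and 10.05 after DMA at 24 h. At 48 h it read 10.57, 10.22 and 10.48 after DMSO and 10.17, 10.01 and 10.58 after DMA. Among the tested genes it had the smallest SE, 0.34. The 95% intervals of its differences were -0.55 to 0.94 around 0.19 at 24 h and -0.91 to 0.57 around -0.17 at 48 h (limma adjusted p = 0.909 and 1). DMA 24 h replicate 3 lay close to the others for this gene, and without it the 24 h difference was 0.04. The 48 h value moved to -0.051 when DMA replicate 2 was left out, and to -0.33 when DMA replicate 3 was.

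Timp1 encodes an inhibitor of matrix metalloproteases that connective tissue and muscle cells secrete in remodelling. At 24 h it read 9.13 and 9.82 on DMSO replicates 1 and 2, had no value on DMSO replicate 3, and read 8.46, 9.09 and 5.31 after DMA. At 48 h it read 7.99, 9.53 and 8.20 after DMSO and 7.64, 10.17 and 8.57 after DMA. The 24 h DMA values were all below the 2 DMSO values, with 9.09 on DMA replicate 2 just under 9.13 on DMSO replicate 1 and replicate 3 far lower. At 48 h the replicate 2 arrays were highest in both groups and replicate 1 lowest in both, and the groups overlapped. The 24 h difference was -1.85 (SE 1.08, limma adjusted p = 0.871), with the missing array dropped. It was -0.70 (SE 0.81) without DMA 24 h replicate 3, and -0.70 (SE 0.42, adjusted p = 0.676) with the replicate number as a block, where only the first pairs enter, at -0.66 and -0.73. At 48 h Timp1 differed by 0.22 (SE 0.96, adjusted p = 1), and by -0.47 and 0.79 without DMA replicates 2 and 1 in turn. The SE of the 48 h difference was 0.34 with the block.

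**Figure D2:**
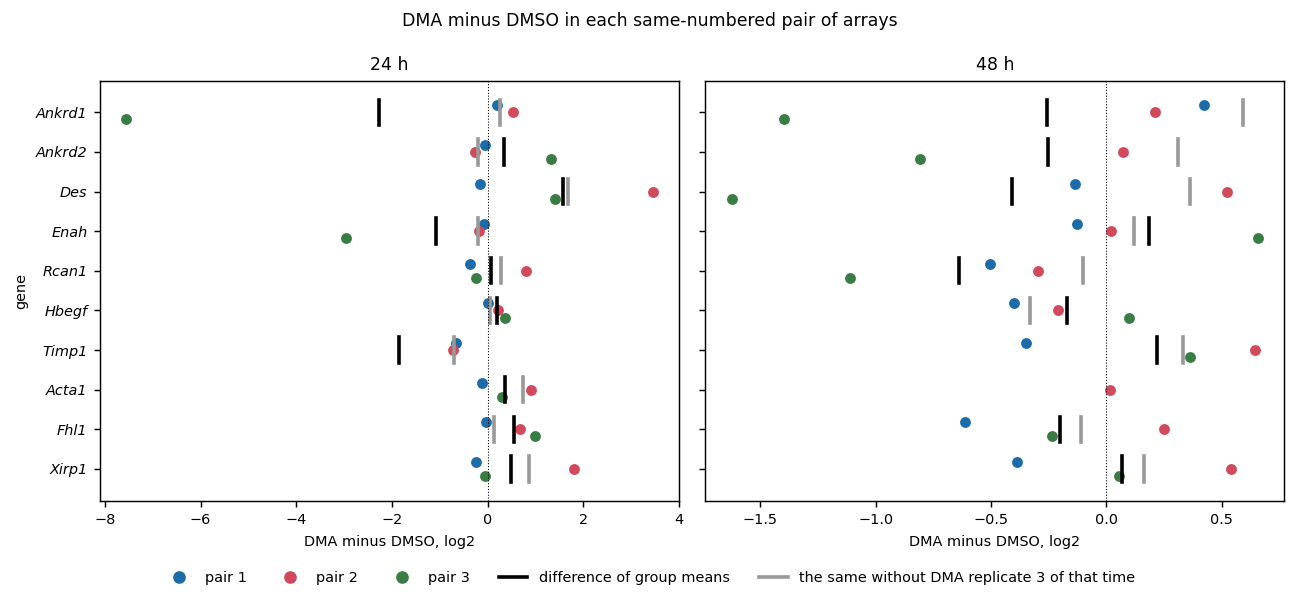
DMA minus DMSO (log2, horizontal axes, which have different ranges) in each same-numbered pair of arrays for the 10 genes, with the difference of the group means in black and the same without DMA replicate 3 of that time in grey (left out for Acta1 at 48 h, which has 1 pair). At 24 h the third pair of Ankrd1, at -7.55, and of Enah, at -2.95, lie apart from their other pairs.

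Few of the genes separated the groups. Among the 9 tested, 2 had DMA values all below the DMSO values at 24 h (Enah and Timp1) and 0 all above, where 3.48% and 4.51% of all tested probes did so. Both genes were much lower on DMA 24 h replicate 3 than on the other DMA arrays. At 48 h 0 of 9 were separated in either direction, against 2.79% of probes with DMA lower and 4.42% with DMA higher. At 24 h 9 genes had 3 complete pairs, a set with the untested Acta1 and without Timp1. All 3 pairs were positive for Hbegf and negative for Enah, 1 of these 9 each, against 13.8% and 9.05% of probes. The first Hbegf pair differed by only 0.00044. Of the 9 tested genes 6 had a positive difference at 24 h, with a median of 0.19, and 3 at 48 h, with a median of -0.20. Without DMA 48 h replicate 3, 6 of the 9 were positive at 48 h and the median was 0.16. Without DMA 24 h replicate 3, 6 of 9 were positive at 24 h and the median was 0.13. Over all 17611 tested genes the medians were 0.09 at 24 h and 0.01 at 48 h, and 9717 and 9048 genes were positive. When the 48 h effect was tested against the 24 h effect, 0 of 35401 probes passed (0%), 695 had an unadjusted p under 0.05 (1.96%), and each of the 9 genes had a limma adjusted p of 0.999.

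The sign of the differences varied between the pairs within a time. Pairs of one number at 24 h and 48 h are different samples, and the labels give no link between them. The genes also share arrays, so the counts below are description. In the first pair 8 of 10 genes were lower after DMA at 24 h (median -0.09) and 7 of 8 at 48 h (median -0.37). In the second pair 7 of 10 were higher at 24 h (median 0.60) and 8 of 10 at 48 h (median 0.14). Medians over all tested probes in these pairs lay between -0.04 and 0.02. Of these probes 51.2% (24 h) and 51.8% (48 h) were positive in the first pair, and 47.2% and 50.1% in the second. The third pairs, which hold the arrays that stand apart, had 5 positive and 4 negative genes at 24 h and 4 positive and 5 negative at 48 h. The medians of the genes there were 0.30 and -0.24, where all probes had medians of 0.34 and 0.096, with 59.3% and 55.1% of them positive. On DMSO 24 h replicate 2, 7 of the 9 genes with 3 values had their lowest DMSO value, against 34.3% of probes. On that array the 6 cardiomyocyte markers with all values had a mean of 8.14, against 9.55 and 8.60 on the other DMSO 24 h arrays and 9.28, 9.41 and 7.45 on the DMA 24 h arrays. Endothelial markers, 7 of 13 with all values, had means of 8.44 on that array and 10.06 and 9.02 on the other DMSO arrays. The part of these shifts in the second pair's differences was not tested. Among genes with 3 complete pairs, the range between pair levels exceeded the median difference within pairs for 8 of 9 at 24 h and 8 of 8 at 48 h. Of all probes 79.5% and 80.4% did the same.

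**Figure D3:**
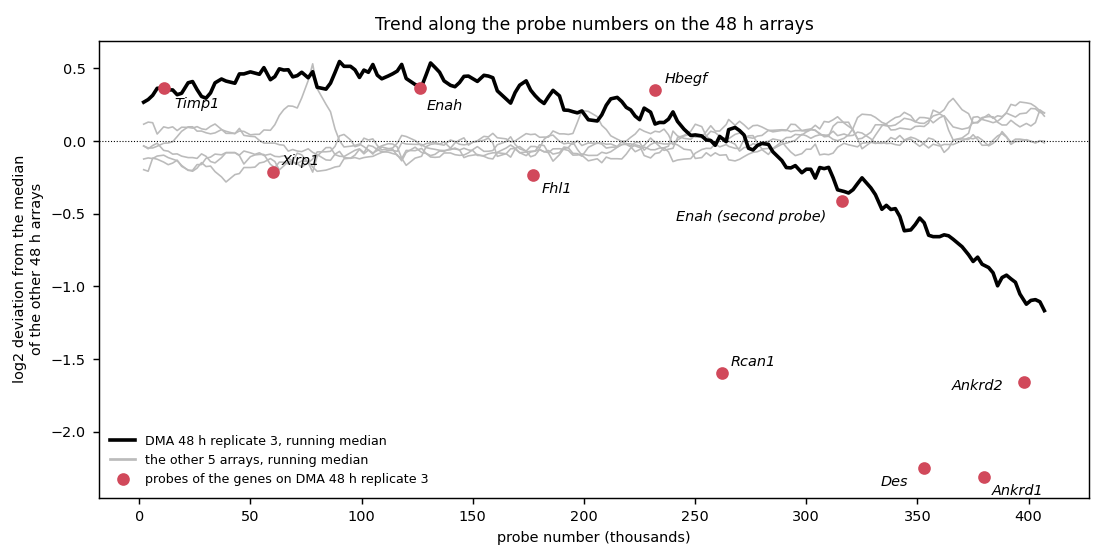
Running median along the probe numbers (horizontal axis) of each 48 h array's log2 deviation from the median of the other 48 h arrays (vertical axis), in black for DMA 48 h replicate 3 and grey for the other 5, with the probes of the genes on that array in red. The black line falls at high probe numbers, where Des, Ankrd1 and Ankrd2 lie, and their points are below it.

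Des, Ankrd1 and Ankrd2 were low together on DMA 48 h replicate 3, and their probes have high numbers, where the running median of that array was below 0. They deviated by -2.25, -2.31 and -1.66 from the other 48 h arrays, and the running median of 250 probes on each side stood at -0.56, -0.81 and -1.06 at their places. With it subtracted, deviations of -1.69, -1.50 and -0.60 remained. Rcan1 deviated by -1.60 at a place where the running median was 0.01. With each array's trend removed, an alternative chosen after seeing the data, the 48 h differences were -0.21 for Des, 0.074 for Ankrd1, 0.11 for Ankrd2 and -0.61 for Rcan1. Timp1 then differed by 0.0027, and the brighter Enah probe by 0.045. The part of the trend in the low values of these genes was not tested.

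**Figure D4:**
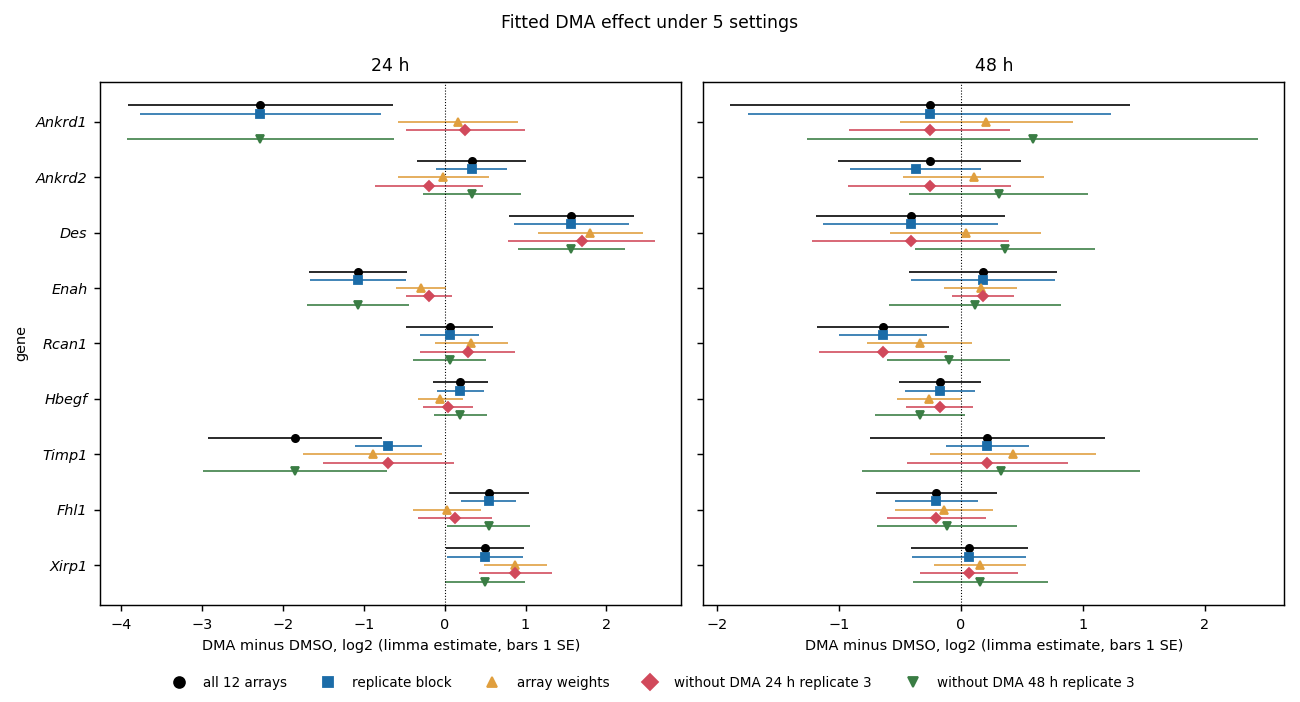
Fitted DMA minus DMSO difference (log2, horizontal axes with different ranges) of the 9 tested genes at 24 h and 48 h under 5 settings, with bars of 1 SE. At 24 h the estimates of Ankrd1, Enah and Timp1 move toward 0 without DMA 24 h replicate 3 and with array weights, while Des stays above 0 under each setting drawn.

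Genes around the 10 gave no calls either. Over 8 lists of partner genes, 121 distinct genes were tested and 0 passed in either direction at 24 h, at 48 h or for the difference between the times. At 24 h 2 had an unadjusted p under 0.05, Plec and Lims1, and at 48 h 0. Of all 17611 tested genes 496 did so at 24 h and 180 at 48 h. Plec, encoding the plectin linker of desmin filaments, differed by 1.21 (SE 0.49, limma adjusted p = 0.871) at 24 h, with pair differences of -0.40, 1.90 and 2.13. Lims1, encoding the PINCH adaptor of integrin signalling, differed by -1.38 (SE 0.62, adjusted p = 0.871) and by -0.71 without DMA 24 h replicate 3. In the desmin network and its chaperones 7 of 16 genes were positive at 24 h (median -0.055, and 0.098 without DMA 24 h replicate 3) and 6 of 16 at 48 h (median -0.12, and 0.039 without DMA 48 h replicate 3). Jup, encoding plakoglobin, differed by -0.36 at 48 h. Ena/VASP and intercalated disc adaptors had 9 of 17 positive at 24 h (median 0.019, and 0.37 without DMA 24 h replicate 3) and 2 of 17 at 48 h (median -0.19), the latter -0.02 without DMA 48 h replicate 3. In that list Vcl, encoding vinculin, differed by -1.82 (SE 0.84) at 24 h, a value that turned on 1 DMSO array. It read 10.47 on DMSO replicate 2, 6.86 on DMSO replicate 3 and 6.65 to 7.06 after DMA, and had no value on DMSO replicate 1. Evl, a relative of Enah, differed by -1.17 (SE 0.64) at 48 h, where the third pair stood at -3.28, and by -0.34 without DMA 48 h replicate 3. It was dim, at 3.04 on that array.

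For the titin spring partners 5 of 12 genes were positive at both times, with medians of -0.16 (0.14 without DMA 24 h replicate 3) and -0.13, the latter -0.034 when DMA 48 h replicate 3 was left out. Tcap, encoding telethonin of the Z-disc, differed by 0.87 (SE 0.53, limma adjusted p = 0.871) at 24 h, with 2.07 in its second pair, and Palld, encoding an actin cross-linker, by -0.44 at 48 h. LIM-only and mechanosensor genes had 5 of 16 positive at 24 h (median -0.38, and 0.22 without DMA 24 h replicate 3) and 4 of 16 at 48 h (median -0.20, and -0.05 without DMA 48 h replicate 3). Fhl3, a relative of Fhl1, differed by 0.69 (SE 0.48) at 48 h, at dim values of 2.77 to 3.99, below the median of the arrays. The calcineurin and NFAT list had 8 of 17 positive at 24 h and 10 of 17 at 48 h, with medians of -0.015 (-0.11 without DMA 24 h replicate 3) and 0.12. Its Cib1, encoding a calcium-binding partner of calcineurin, differed by -3.00 (SE 1.69) at 24 h and -0.23 without DMA 24 h replicate 3, while the regulatory subunit gene Ppp3r1 differed by -0.44 (SE 0.39) at 48 h. Cib1 read 1.37 on DMA 24 h replicate 3, the lowest value of that array. EGF family ligands, receptors and sheddases had 10 of 15 positive at each time, with medians of 0.19 (-0.081 without DMA 24 h replicate 3) and 0.077, the latter 0.16 when DMA 48 h replicate 3 was left out. In it Erbb3 differed by -1.59 (SE 0.82) at 24 h, -0.38 without DMA 24 h replicate 3, and Egfr by 0.50 (SE 0.65) at 48 h. Matrix proteases and their inhibitors had 7 of 17 positive at 24 h and 8 of 17 at 48 h, with medians of -0.10 (0.11 without DMA 24 h replicate 3) and -0.024, the latter 0.14 when DMA 48 h replicate 3 was left out. There the gelatinase gene Mmp2 differed by 0.91 (SE 0.45) at 24 h, with 2.06 in the third pair and 0.47 without DMA 24 h replicate 3, and Reck, a membrane inhibitor of such proteases, by 0.95 (SE 0.54) at 48 h. The 48 h values of Reck were dim, 3.40 to 5.71, and DMSO 48 h replicate 1 had none.

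Fetal and hypertrophy markers had 6 of 11 positive at 24 h (median 0.095, and 0.76 without DMA 24 h replicate 3) and 2 of 11 at 48 h (median -0.24, and 0.06 without DMA 48 h replicate 3). Its smallest unadjusted p at 24 h was that of the glucose transporter gene Slc2a1, at -1.08 (SE 0.51), and -0.49 without DMA 24 h replicate 3. The one at 48 h was smooth muscle actin Acta2, at -0.73 (SE 0.63), and -0.20 without DMA 48 h replicate 3. Nppb, encoding the B-type natriuretic peptide, read 12.67, 9.69 and 10.34 after DMSO and 12.49, 11.03 and 5.38 after DMA at 24 h. At 48 h it read 11.12, 13.79 and 10.84 after DMSO and 10.61, 13.77 and 10.48 after DMA. As with Timp1, the replicate 2 arrays of 48 h were the highest in both groups. Its differences were -1.27 (SE 1.66, limma adjusted p = 0.889) and -0.30 (SE 1.66, adjusted p = 1), the first 0.86 without DMA 24 h replicate 3 and the second 0.27 without DMA 48 h replicate 3. Within the 48 h pairs its differences were all negative, at -0.51, -0.024 and -0.36. Myh7, the slow myosin of the fetal ventricle, showed the same order at 48 h, with 10.94 and 11.13 on the replicate 2 arrays and 8.31 to 8.51 on the other 4. It differed by -0.51 (SE 1.21) at 24 h, 0.95 without DMA 24 h replicate 3, and by -0.0016 (SE 1.21) at 48 h, 0.45 without DMA 48 h replicate 3. Myh6, the fast myosin of the adult heart, was instead highest on replicate 1 at 48 h, at 9.82 after DMSO and 9.43 after DMA, against 5.31 to 7.10 elsewhere. It differed by 0.49 (SE 1.23) at 24 h and -0.40 (SE 1.23) at 48 h, and by 1.17 and 0.59 without DMA replicate 3 of the time. The Myh6 probe was dim at 24 h, with means of 5.25 after DMSO and 5.74 after DMA, below the array medians near 6.03. Myh7 had means of 8.82 and 8.31 there. How well the Myh6 probe reads its gene was not tested.

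On the arrays that stand apart some marker lists of other cell types were low and others high. On DMA 24 h replicate 3 the mean log2 level of 7 fibroblast markers (of 12) was 8.62, against 9.45 to 9.52 on the other DMA 24 h arrays and 8.94 to 9.67 after DMSO. For 8 smooth muscle and pericyte markers (of 12) it was 7.40, against 8.60 to 8.85 and 7.90 to 8.96, and for 7 macrophage and monocyte markers (of 13) 7.01, against 8.72 to 8.75 and 7.84 to 8.67. Lymphocyte markers (7 of 13) were instead highest on that array of the 24 h arrays, at 6.78 against 5.44 to 6.38, as were adipocyte markers (3 of 9), at 8.81 against 7.56 to 8.46. Neutrophil markers (7 of 10) read 5.34 there, within the DMSO range of 5.33 to 5.58. On DMA 48 h replicate 3 the fibroblast and smooth muscle lists were at 9.84 and 8.23, against 10.05 to 10.47 and 8.71 to 9.38 after DMSO, while lymphocyte and adipocyte lists were at 6.95 and 8.47, above all other 48 h arrays. Endothelial markers were at 9.12 there, against 10.05 to 10.74 after DMSO. Over all 48 h arrays 12 of 12 tested endothelial markers had a negative difference and 0 passed the test, with a median of -0.35, and -0.12 without DMA 48 h replicate 3. Of all 17611 tested genes 8563 were negative at 48 h. The markers were read on the same arrays, so they are not separate observations. No list had all its defining markers without a value. Their part in the values of Timp1, Hbegf and the muscle genes was not tested.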

How the data were processed

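Gene expression was measured in 12 heart samples on 1-colour arrays stained with streptavidin-Cy5, per the labels' protocols. The authors deposited log2 intensities for 36227 probes. Their background correction, normalization and genome build are not given in the sources used here. Quantiles were nearly equal within a time and differed between the times. Gene names came from the platform annotation, where 21615 probes had 1 symbol, and all 11 probes of the 10 genes matched the RefSeq table by gene identifier.

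The members and lists were chosen with earlier results of these data known. Named genes outside the 10 were the one of smallest unadjusted p in each partner list at each time, with Nppb, Myh7 and Myh6. A model with 1 term per group was fitted to the 12 arrays by limma 3.58.1 (R 4.3.3, lmFit, then eBayes), and p-values were adjusted over 35401 probes with at least 2 values in each group (Benjamini-Hochberg, threshold 0.05). Missing values were dropped, not filled. The script was tested on simulated data. Plots used matplotlib 3.10.9 in Python 3.11.15.

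Replicate numbers 1 to 3 recur in each group. Deviations from the group means correlated at 0.110 to 0.186 (24 h) and 0.266 to 0.329 (48 h) between same-numbered arrays, and at -0.101 to -0.012 and -0.208 to -0.084 otherwise. The numbers were therefore taken to pair the samples, a pairing that rests on the data. The block, other scalings, filters, array weights and each array left out were the alternatives. The number of arrays limits the precision.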

Additional observations from a re-analysis of the deposited data

How the results depend on the processing

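Over 28 differences of the 10 genes, 588 values under alternatives were computed: 554 kept their direction, 34 reversed and 0 passed, with a smallest limma adjusted p of 0.547. Many of the 554 could not have reversed. Leaving out an array of one time leaves the other time's difference as it was. The probe filters and the fit within a time keep the difference of the means too. The count is therefore no measure of stability. With the replicate block no call changed and 0 probes passed at either time, with 1708 probes at an unadjusted p under 0.05 at 24 h and 753 at 48 h. Over all settings these counts ran from 400 to 2813 at 24 h, from 5 to 1040 at 48 h and from 122 to 1500 for the difference between the times. Each lowest count came from the filter for probes above the median level, which tested 17616 probes where the main fit tested 35401. The count of passing probes was 0 under every setting except without DMA 48 h replicate 1, where it was 1 at 48 h, the unnamed probe 408101 (-5.21, limma adjusted p = 0.00263), chosen after its value was seen, so that leaving out single arrays gave 0 to 1. A left-out array also left out probes with fewer than 2 values in a group.

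With array weights Ankrd1 differed by 0.16 at 24 h and 0.21 at 48 h, Ankrd2 by -0.017 and 0.11 (0.12 for the difference between times), Des by 0.042 at 48 h and Hbegf by -0.051 at 24 h. Without the third pair of 24 h Ankrd1 differed by 0.36, Ankrd2 by -0.16, and the difference between times of Ankrd1 was -0.62. Without the third pair of 48 h Ankrd1 differed by 0.32, Des by 0.19 and Enah by -0.054 at 48 h. With the trend along the probe numbers removed, the 48 h values of Ankrd1, Ankrd2 and Xirp1 were 0.074, 0.11 and -0.19, and the difference between times of Ankrd2 was 0.041. With both Enah probes averaged, Enah differed by -0.012 at 48 h.

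Leaving out single arrays gave ranges across 0 for Ankrd1 at 24 h (-3.73 to 0.26), at 48 h (-0.69 to 0.59) and between times (-0.51 to 3.48), Ankrd2 at 24 h (-0.19 to 0.91) and 48 h (-0.71 to 0.31), Des at 48 h (-0.83 to 0.36), Rcan1 at 24 h (-0.16 to 0.36), Timp1 at 48 h (-0.47 to 0.79), Fhl1 at 48 h (-0.54 to 0.21) and Xirp1 at 48 h (-0.15 to 0.38). The cause of the reversals was not tested. Acta1 had too few 48 h values for any 12-array alternative, and Timp1 had no value without DMSO 24 h replicate 1 or 2. Ankrd2 had none without DMSO 48 h replicate 2 or 3, so its 48 h range leaves out neither of those arrays.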
